A study of Mus musculus with 8 samples.

Results

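Actb, which encodes the cytoskeletal beta-actin, and 9 further genes of the actin cytoskeleton were followed in mouse embryonic stem cells (ESCs) after knockdown (KD) of Tip60, of Hdac6 or of both. The 10 genes were taken as all non-control probes on the arrays that carried their names: Actb, Actg1, Acta2, Tagln, Cnn2, Vcl, Srf, Tpm1, Myl9 and Cttn. These were 23 of 39429 probes and 10 of 30175 gene names. Actb was chosen by its own measured values, which lay on opposite sides of the control upon Tip60 KD and Hdac6 KD, so its values are a description and were not tested.

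Total RNA came from E14 ESCs, a line from the early mouse embryo, grown without feeder cells in medium with serum and LIF. The 4 groups had 2 biological replicates each (A and B) and were infected with lentivirus carrying short hairpin RNAs and harvested 72 hours later. The control KD hairpin was directed against EGFP, the Tip60 KD hairpin against the acetyltransferase Tip60 (gene symbol Kat5), the Hdac6 KD hairpin against the deacetylase Hdac6, and the double KD received both of the latter. All groups were infected, so every group carries the effects of infection, and the arrays measure pools of cells. In such pools fewer cells of one kind and less RNA per cell cannot be told apart.

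Cells read the state of their actin through SRF, a transcription factor encoded by Srf. Unpolymerised actin binds the SRF cofactors of the MRTF family and keeps them from acting in the nucleus, and when actin assembles into filaments the cofactors are released and SRF transcribes genes of the cytoskeleton, Srf and actin genes among them. A second class of SRF targets, the immediate early genes such as Fos and Egr1, is switched on with cofactors of the ternary complex factor family after growth factor signals. SRF binds DNA at a motif known as the CArG box.

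The CArG box was searched for on both strands of 32851 RefSeq promoters of 300 bases, from 250 bases before to 50 bases after the gene start (build GRCm38.p6), and 1.63% of these promoters held one. Only the strict form of 10 letters was searched: CC, then A or T throughout, then GG. Boxes that deviate from it were not counted. Of the 7 genes with a promoter in that table, 5 had at least 1 box of this form, and Acta2 and Tpm1 had none in this window. Actb, Tagln and Cttn had no entry there. The windows below show each box in capitals with up to 30 bases on either side, on the strand of the gene, since they are the sequence feature that gave these genes their common name. A match is a description of the letters and does not show that SRF binds there.
Actg1 (chr11:120348546-120348615, minus strand): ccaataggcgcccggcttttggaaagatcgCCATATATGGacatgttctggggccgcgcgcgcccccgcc
Cnn2 (chr10:79988514-79988583, plus strand): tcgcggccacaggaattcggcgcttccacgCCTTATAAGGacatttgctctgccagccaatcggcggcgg
Myl9 (chr2:156775273-156775342, plus strand): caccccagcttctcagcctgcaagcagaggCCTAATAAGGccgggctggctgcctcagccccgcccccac
Srf (chr17:46556185-46556274, minus strand): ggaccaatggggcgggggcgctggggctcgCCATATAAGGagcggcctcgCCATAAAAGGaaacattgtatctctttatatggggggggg
Vcl (chr14:20929148-20929210, plus strand): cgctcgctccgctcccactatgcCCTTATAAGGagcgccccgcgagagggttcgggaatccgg
Srf held 2 boxes, and Cnn2 and Vcl held the same 10 letters. The box began 90 bases before the gene start in Actg1, 56 bases in Cnn2, 161 bases in Myl9 and 227 bases in Vcl, and the boxes of Srf began 82 and 62 bases before it.

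Levels are given as log2 scaled signal, the log2 of the processed fluorescence of a probe divided by the 75th percentile of its array. Values below -2.71, the floor, were set to it, because no dimmer probe could be told from background on every array. A difference between groups is a log2 change, called when the adjusted p of limma's test over 18116 genes was under 0.1, and each gene is represented by its brightest probe unless probes are named. The 4 groups entered one fit, and the 3 knockdown comparisons share the 2 control arrays. The targeted transcripts were lower in their own knockdowns. Kat5 was at 39.2% of its control level upon Tip60 KD (adjusted p = 0.001098) and at 40.4% in the double KD (adjusted p = 0.001964). Hdac6 was at 17.8% upon Hdac6 KD (adjusted p = 0.0003107), at 27.3% in the double KD and at 73.9% upon Tip60 KD (adjusted p = 0.006217). Between 21896 and 40609 of 43020 spots were well above background on an array, and control B was the lowest. All 10 ESC markers examined passed the filter on dim probes, and their summed signal was 336.8 to 371.5 times the 75th percentile on the 8 arrays. Nanog and Tdgf1 had no value on Tip60 A and are missing from its sum. Dppa5a was the brightest on every array (7.04 to 7.32), so the sum shows little of single markers. Upon Tip60 KD 3 of the 10 were called higher and 0 lower, where 39.7% of all genes were called. Among them Pou5f1 rose by 1.01 (adjusted p = 0.002765) and Zfp42 by 0.45 (adjusted p = 0.01935). Of 7 smooth muscle markers, 4 were at the floor on all 8 arrays (Myh11, Des, Lmod1 and Myocd), with a summed signal of 3.10 to 3.30 in control KD, 2.87 to 2.97 upon Tip60 KD, 3.42 to 3.83 upon Hdac6 KD and 3.15 to 3.34 in the double KD. Most of that sum came from Smtn, which read 0.77 to 1.31 on the log2 scale. Of 8 fibroblast markers, Dcn and Postn were at the floor on every array, and the sum ranged from 3.07 to 3.39 in control KD, 3.62 to 4.13 upon Tip60 KD, 2.75 to 2.88 upon Hdac6 KD and 3.703 to 4.001 in the double KD, with Thy1 the brightest on every array (0.45 to 1.18). The part of such cells in the results was not tested. Of 6 cardiac muscle markers 3 were at the floor on every array (sums 1.07 to 1.36), as were 4 of 6 primitive endoderm markers (0.917 to 1.26). In all these sums a marker at the floor counts as 0.153, so 0.917 is the floor alone.

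Actb is the main actin of non-muscle cells, and its single probe (chr5:143665422-143665481, minus strand, build mm9) was bright on every array. Its log2 signal was 6.06 and 5.95 on control arrays A and B, 5.42 and 5.40 upon Tip60 KD, 6.43 and 6.59 upon Hdac6 KD, and 5.86 and 5.85 in the double KD. The 4 pairs did not overlap, with Tip60 KD lowest, the double KD next, control KD above it and Hdac6 KD highest. The mean upon Tip60 KD was lower than in control KD by 0.59 (a log2 change of -0.59, or 66.2% of control), and the mean upon Hdac6 KD was 1.42-fold higher (0.50). The double KD differed from control KD by -0.15, from Tip60 KD by 0.44 and from Hdac6 KD by -0.65. These differences chose the gene or share arrays with those that did, and carry no test. The level upon Tip60 KD was 46.7% of that upon Hdac6 KD. The directions of the single knockdowns were the same under every alternative, with -0.81 to -0.32 upon Tip60 KD and 0.35 to 0.82 upon Hdac6 KD. The alternatives reuse the arrays whose values chose the gene, so these shared directions are no independent support. The small difference of the double KD ranged from -0.40 to 0.19 and changed sign with quantile normalisation (0.092) and in the deposited log2 values (0.19).

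**Figure D1:**
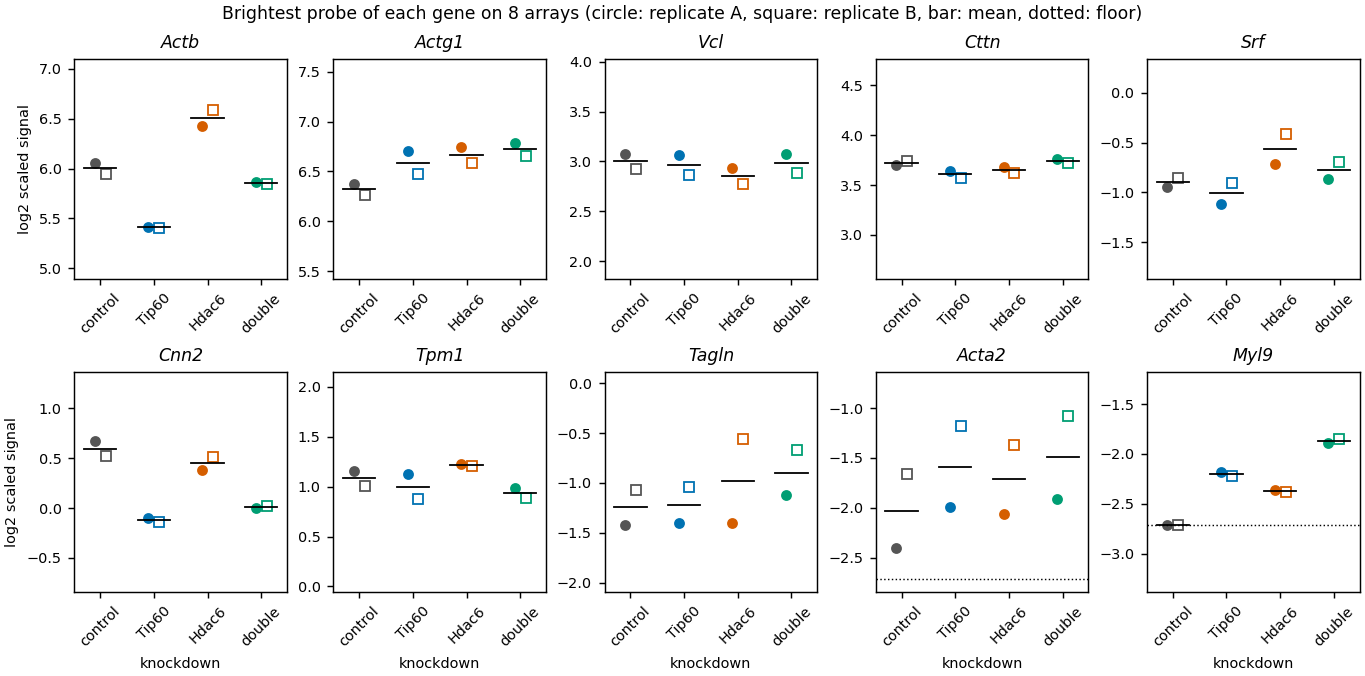
Log2 scaled signal (vertical axis, each panel spanning the same range) of the brightest probe of each of the 10 genes in the 4 groups, with replicate A as filled circles, replicate B as open squares, the mean as a bar and the floor as a dotted line. Actb lies at 5.40 to 5.42 upon Tip60 KD and at 6.43 to 6.59 upon Hdac6 KD, while Acta2 and Tagln differ more between replicates A and B than between groups.

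Of the 9 genes other than Actb, 2 were called upon Tip60 KD, Cnn2 lower and Myl9 higher, where 39.7% of all 18116 genes were called (19.7% higher and 20% lower). Upon Hdac6 KD 2 were called, Actg1 and Myl9, both higher, where 28.9% of all genes were called (14% higher and 14.9% lower). In the double KD 3 were called, Actg1 and Myl9 higher and Cnn2 lower, against 32.8% of all genes (15.9% higher and 16.9% lower). The counts of members were thus near or below the share among all genes. The median log2 change of the 9 genes was -0.04 upon Tip60 KD, 0.26 upon Hdac6 KD and 0.12 in the double KD, beside 0.06, 0.03 and 0.05 over all genes. With the replicate letter as a block in the fit, 4, 5 and 5 of the 9 genes were called, where 60.9%, 53% and 55.5% of all genes were called.

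**Figure D2:**
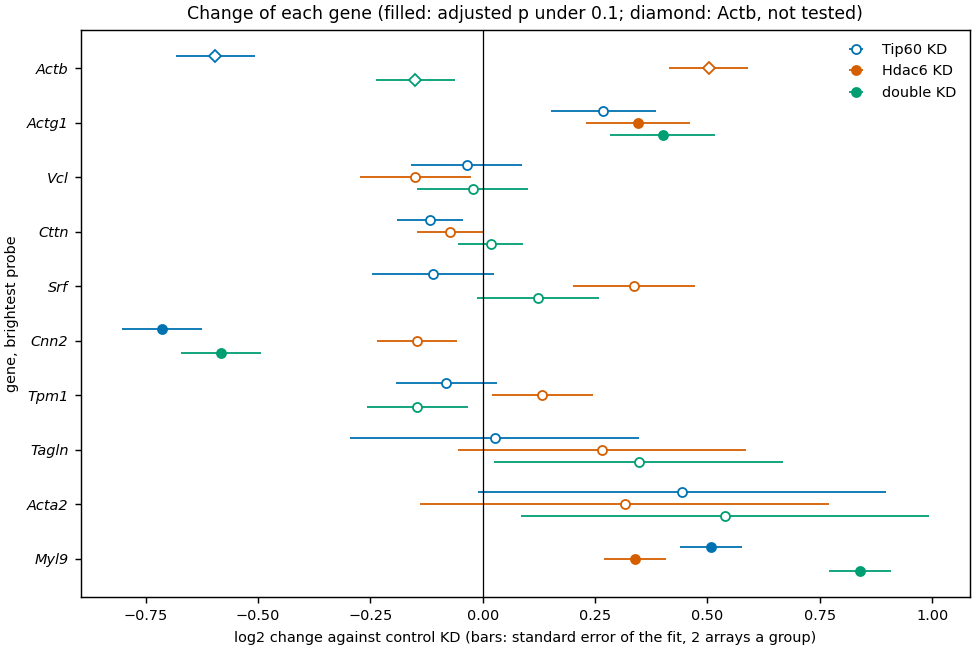
Log2 change against control KD (horizontal axis) of the brightest probe of each gene in the 3 knockdowns, with the standard error of the fit as bars and filled symbols for an adjusted p under 0.1. Actb (diamonds, not tested) lies on opposite sides of 0 in the single knockdowns, Cnn2 is at -0.71 upon Tip60 KD, and Myl9 is at 0.34 to 0.84.

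Actg1 encodes gamma-actin, the second actin of non-muscle cells. Its brightest probe, A_55_P1970597, read 6.37 and 6.27 in control KD, 6.70 and 6.47 upon Tip60 KD, 6.74 and 6.59 upon Hdac6 KD and 6.79 and 6.65 in the double KD. It shares a run of 20 bases with a probe of another name (NAP111417-1). Its deposited interval (chr11:120206967-120206984, mm9) is shorter than its 60 bases, so what it detects is uncertain. Every knockdown array was above both control arrays. The change was called upon Hdac6 KD (0.35, SE 0.12, adjusted p = 0.09181) and in the double KD (0.40, adjusted p = 0.05621), and upon Tip60 KD it was 0.27 (95% interval -0.02 to 0.55, adjusted p = 0.1409; 0.01138 with the replicate block). Both calls were close to the threshold, and both were lost with median scaling, with normexp and negative control background correction, and without a filter on dim probes (adjusted p = 0.8303 and 0.8541 with median scaling). Leaving out either control array or either array of the knockdown itself also ended both calls (adjusted p = 0.1627 to 0.3014 upon Hdac6 KD and 0.1098 to 0.2029 in the double KD), as did leaving out either double KD array for Hdac6 KD (adjusted p = 0.1207). By their brightest probes, Actb and Actg1 lay on different sides of control KD upon Tip60 KD and on the same side upon Hdac6 KD. Upon Tip60 KD the Actg1 change was not called in the main fit, Actb was not tested, and Actg1 probe A_55_P2114993 was at 0.00.

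Of the 5 Actg1 probes, 3 overlap in the coding part of the transcript, starting at bases 624, 662 and 672. They are printed because they gave the highest changes of the gene and are not base-for-base the same, with capitals at bases where overlapping probes differ.
A_55_P2008907 (chr11:120208409-120208468, mm9, minus strand): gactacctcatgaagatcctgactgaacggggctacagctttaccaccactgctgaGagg
A_52_P72237 (chr11:120208371-120208430, mm9, minus strand): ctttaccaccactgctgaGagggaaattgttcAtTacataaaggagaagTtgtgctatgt
A_55_P1985984 (chr11:120208361-120208420, mm9, minus strand): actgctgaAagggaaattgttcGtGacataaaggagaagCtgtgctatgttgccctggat
A_52_P72237 and A_55_P1985984 share 50 positions and differ at 4 of them, while A_55_P2008907 and A_52_P72237 have the same base at all 22 shared positions. Actin genes have near-identical copies in the genome, so which copies each probe detects is uncertain, and the 3 probes are not independent measurements. A_52_P72237 read 4.11 and 4.02 in control KD, 4.95 and 4.95 upon Tip60 KD, 4.81 and 4.85 upon Hdac6 KD and 4.59 and 4.67 in the double KD. A_55_P2008907 read 5.61 and 5.42, 6.25 and 6.17, 6.31 and 6.32, and 6.14 and 5.91 in the same order. No knockdown array overlapped with the control arrays on either probe.

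With every probe fitted by itself, limma called all 3 of these probes higher in each knockdown. Their changes were 0.70 to 0.89 upon Tip60 KD (adjusted p = 0.001081 to 0.006188), 0.73 to 0.80 upon Hdac6 KD and 0.51 to 0.56 in the double KD. A_55_P1985984 had a spot marked as an outlier on Tip60 A, so its Tip60 KD value rests on 1 array. The call of A_55_P2008907 in the double KD was lost without control B (0.41, adjusted p = 0.1048). The probes at bases 1723 and 1841 changed less. The files order these 2 probes differently by transcript base and by genome position, so their order along the gene is not settled. The probe at 1841 was at 0.00 upon Tip60 KD, 0.14 upon Hdac6 KD and 0.26 in the double KD, and none of these was called, although that of the double KD was called with the replicate block (adjusted p = 0.03175). In the interaction term, the double KD minus the sum of the single knockdowns, the 3 overlapping probes were called at -1.09, -1.06 and -0.99 and the probe at 1841 was not (0.12, adjusted p = 0.6391). Over all 22 probes of the 9 genes, 11 were called upon Tip60 KD, 8 upon Hdac6 KD and 11 in the double KD, where 40.6%, 30% and 33.8% of all 22594 probes were called.

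**Figure D3:**
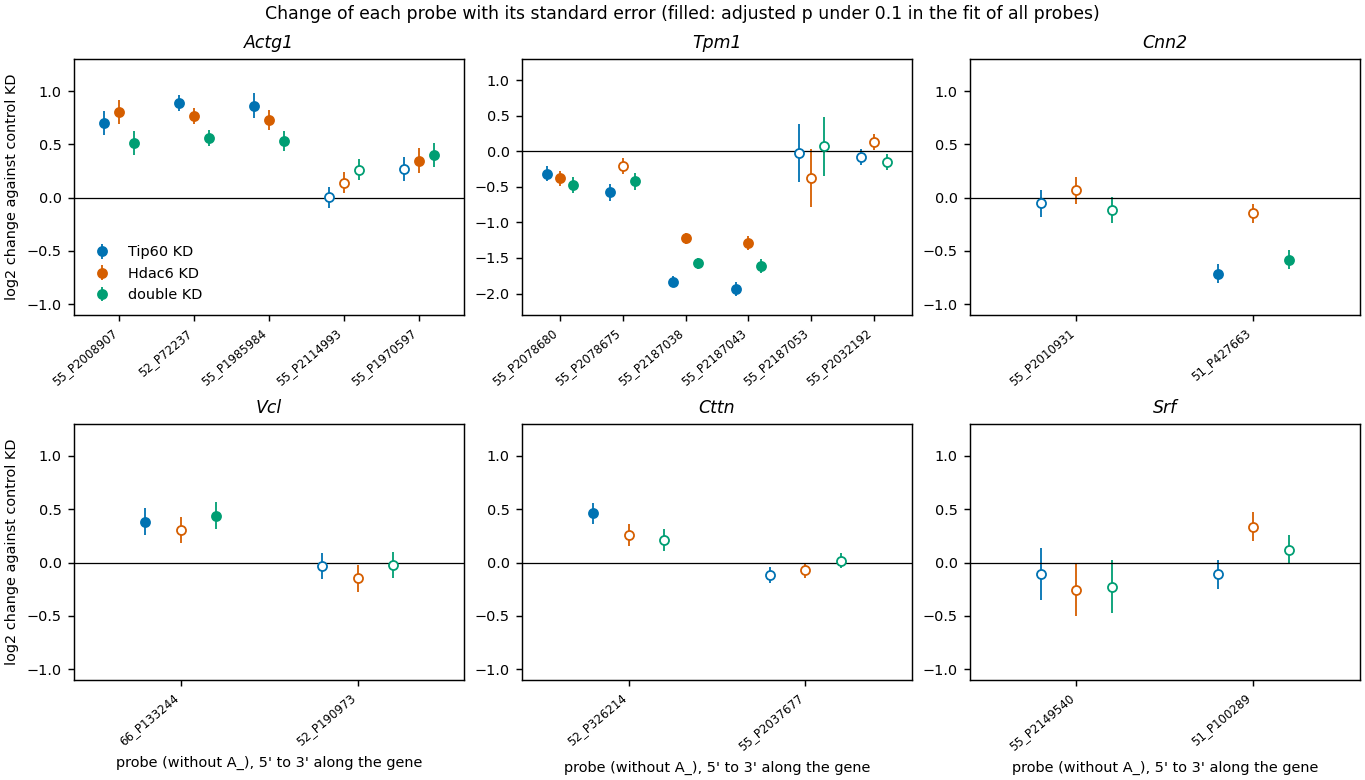
Log2 change against control KD (vertical axis) of each probe of the 6 genes with more than 1 probe, ordered along the gene by the genome positions in the files, with standard errors and filled symbols for an adjusted p under 0.1. Probes of one gene differ: 2 Tpm1 probes lie between -1.94 and -1.22 while the probe nearest the 3′ end stays between -0.15 and 0.13.

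Tpm1 encodes a tropomyosin, a coiled-coil protein that lies along actin filaments, and the gene gives rise to many isoforms by alternative exons and ends. Its 6 probes lie along chromosome 9 (minus strand, mm9) and did not move together. A_55_P2187038 (chr9:66875796-66875855) read 1.46 and 1.51 in control KD, -0.35 and -0.35 upon Tip60 KD, 0.24 and 0.28 upon Hdac6 KD, and -0.15 and -0.03 in the double KD. The 4 groups did not overlap, and control KD was far above the others. Its log2 change was -1.83 upon Tip60 KD (SE 0.08, adjusted p = 0.0004357), -1.22 upon Hdac6 KD (adjusted p = 0.001517) and -1.57 in the double KD (adjusted p = 0.0007379). A_55_P2187043 (chr9:66875782-66875841) shares 46 bases with it and so measures nearly the same stretch, and its changes were -1.94, -1.29 and -1.61. Both are assigned in the files to the same transcript. Upon Tip60 KD the first of them was lower than upon Hdac6 KD by 0.61 (a log2 change of -0.61, adjusted p = 0.006834). All these calls held under quantile normalisation, both other background corrections, the deposited log2 values, the replicate block and without any single array, with -1.97 to -1.67 for the pair upon Tip60 KD.

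The remaining Tpm1 probes changed less. A_55_P2078675 (chr9:66876655-66876714) read -0.42 and -0.47 in control KD and was lower on both Tip60 KD arrays, a change of -0.58 (adjusted p = 0.01308). It was at -0.20 upon Hdac6 KD (not called) and at -0.42 in the double KD (adjusted p = 0.04629), a call lost without either control array or either double KD array (adjusted p = 0.1135 to 0.1721). A_55_P2078680 (chr9:66880274-66880333), nearest the 5′ end, was at -0.31, -0.38 and -0.47 in the 3 knockdowns (adjusted p = 0.07498, 0.05702 and 0.02686). The first 2 of these calls were lost with normexp (adjusted p = 0.2096 and 0.2251), and each of the 3 was lost without control A (adjusted p = 0.2757, 0.218 and 0.1231). The brightest probe over all arrays, A_55_P2032192 (chr9:66871166-66871225) near the 3′ end, read 1.16 and 1.01 in control KD, 1.13 and 0.87 upon Tip60 KD, 1.22 and 1.21 upon Hdac6 KD and 0.98 and 0.89 in the double KD. Its changes of -0.08, 0.13 and -0.15 were not called. A_55_P2187053 varied by up to 0.92 between replicates and was not called. For this gene the value therefore depends on the probe. Averaged over its probes, Tpm1 was at -0.79 upon Tip60 KD, -0.56 upon Hdac6 KD and -0.69 in the double KD. The adjusted p of limma's test was 0.001277, 0.006281 and 0.003077. That mean counts the overlapping pair as 2 probes, at -1.83 and -1.94 upon Tip60 KD, while the remaining probes were at -0.58 to -0.02. Apart from the pair, each probe is assigned to a different transcript name.

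Cnn2 encodes calponin 2, an actin-binding protein of non-muscle and smooth muscle cells. Its brighter probe read 0.67 and 0.52 in control KD, -0.10 and -0.14 upon Tip60 KD, 0.38 and 0.52 upon Hdac6 KD and 0.00 and 0.03 in the double KD. The Tip60 KD and double KD arrays lay below the others, and the Hdac6 KD arrays were at or below the lower control array. Cnn2 fell by 0.71 upon Tip60 KD (SE 0.09, adjusted p = 0.002983) and by 0.58 in the double KD (adjusted p = 0.008222), and upon Hdac6 KD the change was -0.15 (95% interval -0.37 to 0.07). It was lower upon Tip60 KD than upon Hdac6 KD (-0.57, adjusted p = 0.01276) and lower in the double KD than upon Hdac6 KD (-0.44, adjusted p = 0.05394, which was lost in 10 alternatives, among them leaving out any array of these 2 groups). The second Cnn2 probe, 415 bases upstream, read -0.12 and 0.22 in control KD and -0.02 and 0.01 upon Tip60 KD, and its changes of -0.05, 0.07 and -0.12 were not called.

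Myl9 encodes a regulatory light chain of non-muscle and smooth muscle myosin, the motor that pulls on actin filaments. Its probe was dim: both control arrays were at the floor, with -2.18 and -2.23 upon Tip60 KD, -2.36 and -2.38 upon Hdac6 KD and -1.89 and -1.85 in the double KD. On control B the spot was not well above background, and on the other 7 arrays it was. The groups did not overlap, and the double KD was highest. Since control KD is a bound, Myl9 was at least 1.42-fold higher upon Tip60 KD (adjusted p = 0.003743), at least 1.26-fold higher upon Hdac6 KD (adjusted p = 0.02191) and at least 1.79-fold higher in the double KD (adjusted p = 0.001796) in the main setting. The 2 control values are the floor itself (SD 0), so these tests hold no measured spread of control KD. It was higher in the double KD than upon Hdac6 KD (0.50, adjusted p = 0.02111) and than upon Tip60 KD (0.33, adjusted p = 0.09454). The software had subtracted 51.6 and 143 units of background from raw signals of 277 and 270 on control arrays A and B, and 37.9 to 74.6 units from raw signals of 300 to 402 on the knockdown arrays. In the deposited log2 values, treated as having no background subtracted, the changes were 0.26, 0.18 and 0.57 and none was called (adjusted p = 0.4179, 0.6253 and 0.1159). With median scaling none was called either. Quantile normalisation ended the calls of Tip60 KD and Hdac6 KD (adjusted p = 0.2601 and 0.5226). The call of Hdac6 KD was also lost with normexp (adjusted p = 0.2501) and negative control background correction (adjusted p = 0.1591). It was lost without Hdac6 A too (a change of 0.33). The difference between the double KD and Hdac6 KD was lost without any one of the arrays of these groups (adjusted p = 0.1005 to 0.1445).

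Acta2 and Tagln encode the smooth muscle actin and transgelin, both known as strong MRTF and SRF targets in contractile cells. Tagln read -1.42 and -1.07 in control KD, -1.40 and -1.04 upon Tip60 KD, -1.40 and -0.56 upon Hdac6 KD and -1.12 and -0.67 in the double KD. The groups overlapped, and its changes of 0.03, 0.26 and 0.35 had a standard error of 0.32 and were not called, although that of the double KD was called with the replicate block (adjusted p = 0.07971). Acta2 was read by a probe printed at 10 spots, with means of -2.40 and -1.66 in control KD, -1.99 and -1.18 upon Tip60 KD, -2.06 and -1.37 upon Hdac6 KD and -1.91 and -1.08 in the double KD. Replicate B was above replicate A in all 4 groups, and the replicates differed more than the groups. The changes of 0.44, 0.32 and 0.54 were not called (SE 0.45, adjusted p = 0.5361, 0.7033 and 0.4714). Compared within a letter, Tip60 KD was above control KD by 0.41 on the A arrays and 0.48 on the B arrays, the double KD by 0.49 and 0.58, and Hdac6 KD by 0.34 and 0.29. With the replicate block all 3 changes of Acta2 were called (adjusted p = 0.002219, 0.01034 and 0.001644). The spots themselves spread widely, with an SD of 0.19 to 1.16 within an array, and with the median in place of the mean of the spots the changes were 0.35, 0.30 and 0.22.

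Srf, the factor itself, read -0.95 and -0.85 in control KD, -1.11 and -0.91 upon Tip60 KD, -0.71 and -0.42 upon Hdac6 KD and -0.86 and -0.70 in the double KD. Both Hdac6 KD arrays were above both control arrays, and Tip60 KD overlapped with control KD. No change against control KD was called: they were -0.11 (95% interval -0.44 to 0.22), 0.34 (0.00 to 0.67) and 0.12 (-0.21 to 0.46), although that of Hdac6 KD was called with the replicate block (adjusted p = 0.01158). Srf was lower upon Tip60 KD than upon Hdac6 KD (-0.45, adjusted p = 0.08139), a call that was lost with normexp (adjusted p = 0.1583) and when any 1 array other than Hdac6 A was left out (adjusted p = 0.1126 to 0.31). The second Srf probe showed no such difference (0.16, adjusted p = 0.8079).

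Vcl encodes vinculin, which links integrin adhesions to actin, and Cttn encodes cortactin, an activator of branched actin assembly and a known protein substrate of Hdac6. The brighter Vcl probe read 3.08 and 2.92 in control KD, 3.07 and 2.87 upon Tip60 KD, 2.93 and 2.77 upon Hdac6 KD and 3.08 and 2.88 in the double KD. The brighter Cttn probe stayed between 3.57 and 3.76 on all 8 arrays. Neither was called, and the 95% intervals of the changes of Cttn were -0.30 to 0.06, -0.25 to 0.11 and -0.16 to 0.20. The Vcl change of -0.15 upon Hdac6 KD was called with the replicate block (adjusted p = 0.06377). The dimmer, more 5′ probe of each gene was higher. That of Cttn read 0.02 and 0.19 in control KD, 0.56 and 0.57 upon Tip60 KD, 0.31 and 0.41 upon Hdac6 KD and 0.22 and 0.41 in the double KD, and it rose by 0.46 upon Tip60 KD (adjusted p = 0.01879). With the replicate block its values upon Hdac6 KD (0.26) and in the double KD (0.21) were called too (adjusted p = 0.02599 and 0.04231), as was that of Vcl upon Hdac6 KD (0.30, adjusted p = 0.006406). The 5′ probe of Vcl rose by 0.38 upon Tip60 KD (adjusted p = 0.06348) and by 0.44 in the double KD (adjusted p = 0.05107). Without control B these 2 Vcl calls were lost (0.29 and 0.34, adjusted p = 0.2395 and 0.1983), and so they were without Tip60 A and double A (adjusted p = 0.2393 and 0.1914).

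The difference between 5′ and 3′ probes was also found across the arrays. In 2025 transcripts with kept probes at least 300 bases apart, the 5′ probe was dimmer than the 3′ probe by a median log2 difference of -0.96 and -0.90 on the control arrays, -0.67 and -0.57 upon Tip60 KD, -0.83 and -0.75 upon Hdac6 KD and -0.87 and -0.79 in the double KD. All 6 knockdown arrays were above both control arrays. Against control KD the median shift was 0.31 upon Tip60 KD, 0.14 upon Hdac6 KD and 0.12 in the double KD, and 74.1%, 66.4% and 65.6% of the transcripts shifted upward. Upon Tip60 KD the same shift was 0.69 in Actg1, 0.66 in Cnn2, 0.58 in Cttn, 0.42 in Vcl and 0.01 in Srf. Upon Hdac6 KD and in the double KD it was 0.66 and 0.25 in Actg1, 0.21 and 0.46 in Cnn2, 0.33 and 0.20 in Cttn and 0.45 and 0.46 in Vcl, while Srf shifted the other way (-0.60 and -0.35). The part of the shift in the differences between probes of these genes was not tested. The probe of Actb starts at base 1202 of its transcript and is the only one for that gene, so no such pair could be formed.

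**Figure D4:**
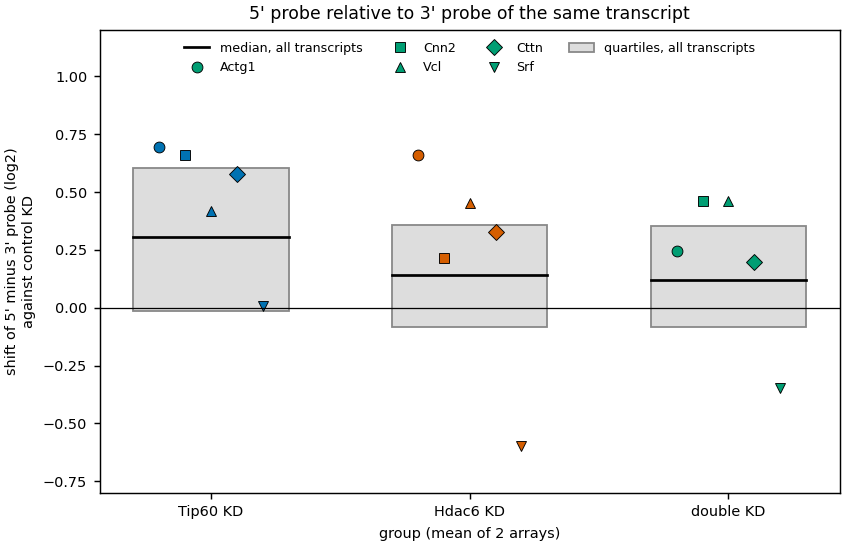
Shift of the 5′ probe relative to the 3′ probe of one transcript against control KD (vertical axis, log2, means of 2 arrays) for each knockdown, with grey bars from the lower to the upper quartile over 2025 transcripts, a black line at their median and symbols for 5 genes. The medians are 0.31, 0.14 and 0.12, and Actg1 and Cnn2 lie above the upper quartile upon Tip60 KD.

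The knockdowns were also compared with each other. Of the 9 genes, 2 were called lower upon Tip60 KD than upon Hdac6 KD, Cnn2 and Srf, where 23.5% of all genes were called (12.2% higher and 11.3% lower). Only Myl9 was called between the double KD and Tip60 KD, where 3.71% of all genes were (1.15% higher and 2.56% lower), and this call was lost without any single array. Between the double KD and Hdac6 KD, Cnn2 was called lower and Myl9 higher, where 10.1% of all genes were called (5.37% higher and 4.73% lower). With the replicate block Tpm1 (-0.21, adjusted p = 0.0745) and Myl9 (0.17, adjusted p = 0.06142) were also called between Tip60 KD and Hdac6 KD, Srf (0.23, adjusted p = 0.07081) between the double KD and Tip60 KD, and Acta2 (0.22), Srf (-0.21) and Tpm1 (-0.28) between the double KD and Hdac6 KD (adjusted p = 0.05315, 0.07713 and 0.04754). With that block 41.5%, 26.2% and 29.4% of all genes were called in these comparisons and 47.1% in the interaction. In the interaction term none of the 9 genes was called by limma at the level of the brightest probe (none had an unadjusted p under 0.05, and with the replicate block Actg1, Acta2 and Cttn were called, with adjusted p = 0.09132, 0.09717 and 0.09527), where 22% of all genes were called (11.1% higher and 10.9% lower). In it 6 single probes were called, of Actg1, Tpm1 and Cttn, beside 23.3% of all probes. Of the 22 probes, 5 were called between Tip60 KD and Hdac6 KD (23.9% of all probes), 1 between the double KD and Tip60 KD (4.73%) and 3 between the double KD and Hdac6 KD (10.2%).

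Genes most like Actb were ranked by Pearson correlation over the 8 arrays after the mean of each replicate letter was taken away, among 14128 genes above the floor on every array. The highest were Raph1 (0.997), which encodes lamellipodin of the leading edge, Smtn (0.994), which encodes the actin-binding smoothelin, Sapcd2 (0.993), Gsto1 (0.993) and Arrb1 (0.993), which encodes beta-arrestin 1. Their changes were smaller than those of Actb, from -0.48 for Gsto1 to -0.19 for Raph1 upon Tip60 KD and from 0.18 to 0.41 upon Hdac6 KD. Among the 8 members above the floor on every array, which leaves out Myl9, Srf was most like Actb (0.91, rank 397). Tpm1 (0.77, rank 1230) and Cnn2 (0.76, rank 1277) followed. These values rest on the brightest probe of each gene. Upon Hdac6 KD, where Actb was higher, the second Srf probe was at -0.26 (not called) and the other Tpm1 probes at -1.29 to -0.20. Actg1 had a correlation of 0.06 with Actb, Acta2 -0.34 and Vcl -0.68. These coefficients rest on 8 arrays in 4 groups and are descriptions.

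Of 21 further cytoskeletal targets of SRF and MRTF, 17 were tested. Upon Tip60 KD 4 rose and 5 fell, upon Hdac6 KD 6 rose and 2 fell, and in the double KD 4 rose and 4 fell, with medians of -0.08, 0.10 and 0.04. Over all genes 39.7%, 28.9% and 32.8% were called in the same 3 comparisons. Tpm3, another tropomyosin gene, read 3.69 and 3.58 in control KD and 4.33 to 4.76 in the knockdowns, and rose by 1.02, 0.88 and 0.77 (adjusted p = 0.002052, 0.005905 and 0.006724). Tpm4 went the other way upon Tip60 KD (-0.81, adjusted p = 0.007913). Itga5, the fibronectin receptor subunit, read -0.67 and -0.79 in control KD, 0.86 and 0.84 upon Tip60 KD and 0.77 and 0.56 in the double KD. It rose 2.99-fold upon Tip60 KD and 2.63-fold in the double KD. Upon Hdac6 KD Pdlim7 and Fhl1, which encode LIM domain proteins, rose by 0.68 and 0.59, and Pdlim7 also rose by 0.43 upon Tip60 KD. Flna, the actin cross-linker filamin A, rose by 0.43 upon Tip60 KD and by 0.75 in the double KD.

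The immediate early targets were mixed in direction. Of 9 listed genes 6 were tested, and 3 rose and 3 fell upon Tip60 KD, while 2 rose and 3 fell upon Hdac6 KD and in the double KD, beside 39.7%, 28.9% and 32.8% of all genes called in either direction. Fos read -1.33 and -1.57 in control KD and was at the floor on all 6 knockdown arrays, so it was at least 2.39-fold lower in each knockdown (adjusted p = 0.0009353 to 0.002036). These tests hold no measured spread of the knockdown groups, since their values are all the floor. Egr1 fell by 0.91 upon Tip60 KD (adjusted p = 0.001577). Fosb rose by 0.97 upon Tip60 KD, by 1.25 upon Hdac6 KD and by 0.87 in the double KD. The adjusted p of limma's test was 0.0558, 0.03598 and 0.09151. Fosb was near the floor in control KD (-2.40 and -2.56) and read -1.70 and -0.75 upon Hdac6 KD. Ier2 rose by 0.42 upon Tip60 KD, by 1.17 upon Hdac6 KD and by 0.98 in the double KD. Control A of Ier2 read -2.62, and 1 control array was at the floor.

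All 21 genes of actin dynamics were tested. Upon Tip60 KD 7 rose and 7 fell, upon Hdac6 KD 8 rose and 3 fell, and in the double KD 5 rose and 7 fell, with medians of 0.04, 0.06 and -0.01, where 39.7%, 28.9% and 32.8% of all genes were called. Tmsb10, which encodes an actin monomer-binding thymosin, was higher on every knockdown array (5.54 to 5.76) than on either control array, and rose by 0.86, 0.77 and 0.76. Arpc1b of the Arp2/3 complex fell by 0.92 and Capza1, a subunit of the filament capping protein, fell by 0.86 upon Tip60 KD. Pfn2, an actin monomer-binding profilin, fell by 0.82 upon Tip60 KD, by 1.22 upon Hdac6 KD and by 1.04 in the double KD. Gsn, the filament-severing gelsolin, fell by 0.80 upon Hdac6 KD. Wdr1, which helps cofilin take filaments apart, rose by 0.74 upon Tip60 KD and by 0.87 in the double KD. It read 0.43 and 0.41 upon Hdac6 KD, beside -0.10 and -0.20 in control KD.

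Among the 12 focal adhesion genes, 5 rose and 1 fell upon Tip60 KD, 6 rose and none fell upon Hdac6 KD, and 5 rose and 1 fell in the double KD. Of all genes 19.7%, 14% and 15.9% were called higher and 20%, 14.9% and 16.9% lower in these knockdowns. The medians of the list were 0.27, 0.31 and 0.21. Actn1, which encodes the cross-linker alpha-actinin 1, read -0.63 and -0.77 in control KD and -0.03 to 0.52 in the knockdowns, and rose by 0.77, 1.18 and 0.92. Vasp, which promotes filament growth, rose by 0.51, 0.46 and 0.59, and its relative Enah rose by 1.01 upon Tip60 KD and by 0.73 in the double KD. Ptk2, the focal adhesion kinase, rose by 0.47 upon Tip60 KD and by 0.51 upon Hdac6 KD.

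Of 13 genes often used as expression references, as Actb is, 12 were tested. Upon Tip60 KD 2 rose and 1 fell, upon Hdac6 KD 2 rose and 4 fell, and in the double KD 1 rose and 4 fell, beside the 39.7%, 28.9% and 32.8% called among all genes. The glycolytic Pgk1 read 6.56 and 6.42 in control KD and 5.79 to 5.99 in the knockdowns, and fell by 0.50, 0.62 and 0.58. Tfrc, the transferrin receptor, rose by 0.93 upon Tip60 KD and by 0.46 in the double KD. B2m, the light chain of MHC class I, rose by 1.02 upon Hdac6 KD. Ywhaz rose by 0.29 upon Tip60 KD, while 1 of its other probes was called lower.

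**Figure D5:**
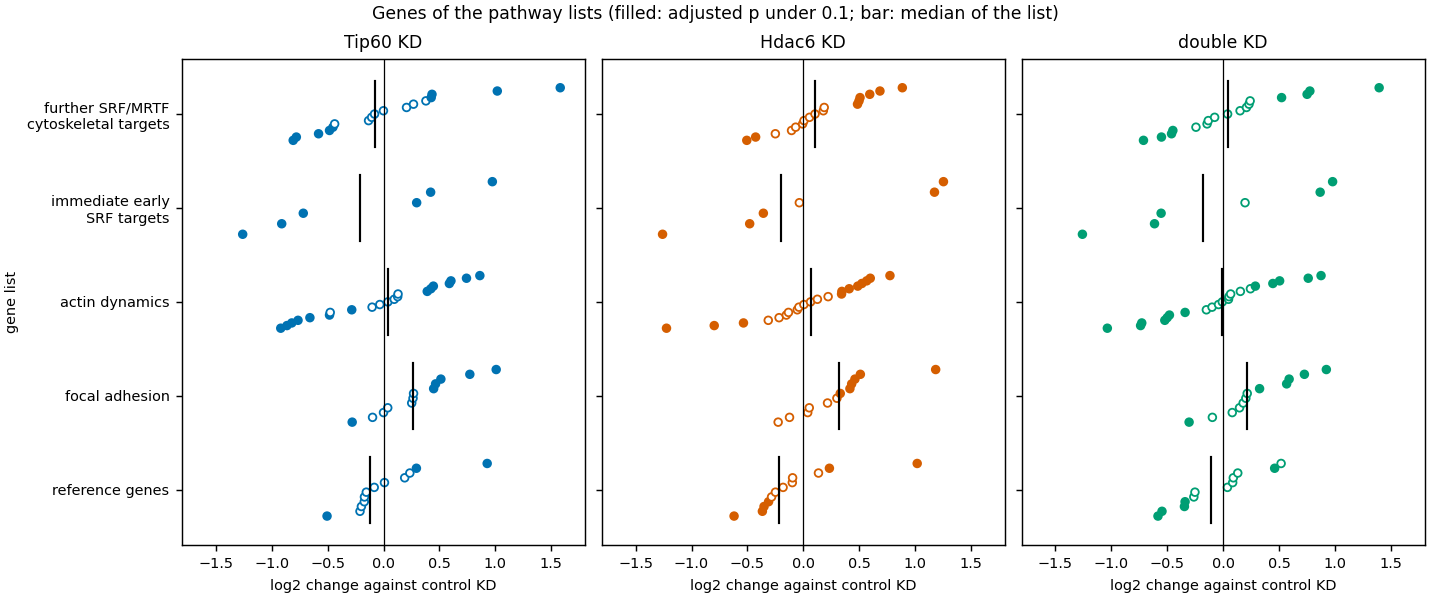
Log2 change against control KD (horizontal axis) of every tested gene of the 5 lists in each knockdown, filled where the adjusted p was under 0.1, with the median of each list as a black bar. The medians lie within 0.32 of 0, those of the focal adhesion list at 0.27, 0.31 and 0.21, and single genes reach 1.58 (Itga5) and -1.26 (Fos).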

How the data were processed

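Gene expression in 8 samples of 4 groups was measured on Agilent arrays with 1 colour (Cy3). The deposited scanner files hold fluorescence intensity per spot, which Agilent Feature Extraction 10.7.1.1 (named in the submitters' processing notes) had background-subtracted. The authors' series matrix holds deposited log2 values, whose scale was inferred: each column ranked probes as the median signal of that array did (Spearman correlation at least 0.9995), and background subtraction is not stated.

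The members and gene lists were chosen with earlier results of these data known. Outlier-marked spots were set to missing, the spots of a probe were averaged, and signals were divided by the 75th percentile of the array and raised to a floor of 0.153 of it. Probes above the floor and well above background on at least 2 arrays were kept (22594, including all 23 of the members), and the brightest represented a gene. The test was limma 3.58.1 (R 4.3.3) on log2 values, over all 4 groups, with Benjamini-Hochberg adjustment and 1.84 prior degrees of freedom added to 4 residual ones. Genes named from the lists are up to 3 called ones with the largest change per list and knockdown. A named gene can also have been called in other knockdowns, and only some of those further calls are given. One further list and some genes chosen by this rule are not reported here. All probes of the members, the targeted genes and the 5 genes most like Actb are also named. The pairs of 5′ and 3′ probes and the median over spots were examined after the values were seen. The fit was tested on simulated data drawn independently for each array. That simulation held no difference between replicate letters shared by the groups, so it does not cover the pairing described below.

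The letters A and B are those of the replicates in the sample titles, which do not say whether they also marked the slide. Differences of B and A were correlated between all groups (r of 0.65 to 0.80), so the letters pair the arrays. The position on the slide and the group cannot be told apart. With 2 arrays a group, their number limits the precision. Positions of probes were taken as deposited (mm9), and exon annotation of that build was not used here.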

Additional observations from a re-analysis of the deposited data

Results flagged for a closer look

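In 6 single probes the effect of Hdac6 KD differed with and without Tip60 KD, by the interaction term of limma fitted over all probes. The 3 overlapping Actg1 probes had interaction values of -1.09 (A_52_P72237, adjusted p = 0.007189), -1.06 (A_55_P1985984, adjusted p = 0.01799) and -0.99 (A_55_P2008907, adjusted p = 0.01657). For A_52_P72237 the log2 change upon Hdac6 KD was 0.77 against control KD, and the double KD differed from Tip60 KD by -0.33. The 2 overlapping Tpm1 probes had values of 1.48 (A_55_P2187038) and 1.61 (A_55_P2187043), both with an adjusted p of 0.007011. The first fell by 1.22 upon Hdac6 KD against control KD, and the double KD was 0.26 above Tip60 KD. These 5 calls held without any single array where a value could be fitted. The more 5′ Cttn probe had a value of -0.50 (adjusted p = 0.0736), which lost its call in 10 of 13 alternatives, and 23.3% of all probes were called in this term. With the replicate block, the interaction of the 5′ Vcl probe A_66_P133244 (-0.25, adjusted p = 0.04376) and of Tpm1 probe A_55_P2078680 (0.22, adjusted p = 0.07803) was called too.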

How the results depend on the processing

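The counts of the 9 genes called were small and moved with the processing. In the order Tip60 KD, Hdac6 KD and double KD against control KD, then Tip60 KD against Hdac6 KD, double KD against Tip60 KD, double KD against Hdac6 KD and the interaction, they were 2, 2, 3, 2, 1, 2 and 0. With the replicate block they were 4, 5, 5, 4, 2, 5 and 3, and with the replicate block and the GC trend removed 5, 5 and 5 for the knockdowns against control KD, 2 and 5 for the double KD against Tip60 KD and Hdac6 KD, and 3 for the interaction. Among all 18116 genes these fits called 11028, 9594 and 10046 (block) and 10662, 9288 and 9827 (block and GC) in the knockdowns against control KD. Median scaling gave 1, 0, 0, 0, 0 and 0 in the first 6. It moved the median of all genes by -0.16, -0.11 and -0.21 in the knockdowns against control KD and left 1499, 219 and 759 calls, of which 24.1%, 16.9% and 19.9% were higher. The mean of the probes gave 4, 3 and 4 for the knockdowns against control KD and 2 for the interaction, and a change of at least 2-fold was met by 0 genes in every comparison with calls.

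For Hdac6 KD against control KD, normexp, the negative control background and the series matrix gave 0, and the low floor, missing values in place of the floor, no filter on dim probes, probes above background on all arrays, only the arrays compared and an adjusted p under 0.05 gave 1. For Tip60 KD against control KD, missing values and probes above background on all arrays gave 1. For Tip60 KD against Hdac6 KD, normexp, the negative control background, the low floor, only the arrays compared and an adjusted p under 0.05 gave 1. For the double KD against control KD, normexp, the negative control background, the series matrix, missing values, no filter, probes above background on all arrays and an adjusted p under 0.05 gave 2. For the double KD against Tip60 KD the 1 call became 0 under quantile normalisation, normexp, the negative control background, the series matrix, the low floor, missing values, probes above background on all arrays, only the arrays compared, the intensity trend and an adjusted p under 0.05. For the double KD against Hdac6 KD, quantile normalisation, normexp, probes above background on all arrays and an adjusted p under 0.05 gave 1, and the series matrix, the low floor and only the arrays compared gave 0. Leaving out 1 array gave 2 to 3, 0 to 2, 2 to 3, 1 to 2, 0, 0 to 2 and 0.

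Actb in the double KD turned from -0.15 to 0.092 with quantile normalisation and to 0.19 in the series matrix, and Tpm1 with the mean of its probes turned from 0.13 to -0.56 upon Hdac6 KD and from -0.20 to 0.66 in the interaction. Of 2460 values for single tested genes and probes under alternatives, 2251 kept their side of the threshold, and 151 lost and 56 gained a call. The other 2, both of Tpm1, turned and were called. Values that were not called could change sign and still count as kept. That of Srf in the double KD against control KD (0.12) ranged from -0.12 to 0.21 in this way. The cause of these shifts was not tested. The background on control B limits what can be said of Myl9, whose control level is a bound. Control levels of Fosb and Ier2 were also near or at the floor.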
